A study of Mus musculus with 4 samples.

Results

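The genes of the nuclear pore and of nuclear transport were examined in late two-cell mouse embryos cultured with or without a MYC inhibitor. They were selected by a rule on the gene symbol that uses no measured value, written with earlier results of these data known, as the nucleoporins, the importin and exportin receptors and the proteins of the Ran cycle. This gave 66 of the 24411 genes listed, with 31 nucleoporins, 18 importins, 8 exportins, 6 genes of the Ran cycle and 3 further genes that share a symbol stem (Ranbp9, Ranbp10 and Nup62-il4i1). Of these, 65 had enough counts to be tested, and Nup62-il4i1, a readthrough transcript, was listed at 0 in every library.

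The nuclear pore complex is a large channel through the nuclear envelope, built from nucleoporins that form outer and inner rings, a membrane anchor, filaments on the cytoplasmic face, a basket on the nuclear face and a central channel lined with phenylalanine-glycine repeats. Importins carry proteins inward and exportins carry proteins and RNA outward, and the small GTPase Ran sets the direction, because its GTP-bound form releases import cargo and loads export cargo in the nucleus. Oocytes store transcripts of this system, and Kpna7 is an importin alpha known from oocytes and early embryos.

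Embryos of the ICR strain were produced by in vitro fertilization, cultured in KSOM medium with bovine serum albumin and collected at 36 h post-insemination (hpi). One group received 6 µM 10074-G5, a small molecule that blocks the pairing of MYC with MAX, and the control group received its vehicle, DMSO; the treatment began at the one-cell stage, at 3 hpi by the sample labels and at 6 hpi by the description of the series. Each group comprised 2 polyadenylated RNA libraries of 10 pooled embryos each. No gene was deleted, so no targeted gene could be used to check the labels, and the inhibitor acts on a protein.

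Total expected counts were between 18206584 and 20718690 per library. DMSO replicate 1 stood apart: among all tested genes, the DMSO libraries differed from each other by more than 2-fold for 37.3%, and the 10074-G5-treated libraries for 18.4%. The summed FPKM (fragments scaled by transcript length and library size) of 6 two-cell marker genes was 485 in DMSO replicate 1 and between 1266 and 1524 in the other 3 libraries, although Eif1a, one of the 6, was highest in DMSO replicate 1 (182.8, against 107.3, 79.1 and 63.9). That of 7 oocyte-derived transcripts was 928 and 2220 in the DMSO libraries and 4662 and 3807 in the 10074-G5-treated libraries. Most of that sum was Oosp1 (555 and 1572 against 3691 and 2917), and Zp3 went the other way (205 and 75.1 against 58.9 and 65.1), while the remaining 5 were each higher in both treated libraries than in both DMSO libraries. None of these 13 markers was at 0 in all libraries. Sums were between 0.58 and 6.68 for 9 cumulus and granulosa cell markers (4 of them, Foxl2, Amh, Ptx3 and Inhba, at 0 throughout), between 2.7 and 16.1 for 6 sperm markers (Prm1 and Tnp2 at 0 throughout), and between 0 and 2.38 for 4 blood markers (Hbb-bt and Hbb-bs at 0 throughout). The part of these differences in the results that follow was not tested.

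Transcripts of the transport genes took 1.39% and 1.11% of all counts in the DMSO libraries, and 0.908% and 0.971% in the 10074-G5-treated libraries. The groups did not overlap, and the DMSO libraries lay further apart than the treated ones. Exportins took 0.231% and 0.158% of the counts in the DMSO libraries against 0.104% and 0.114% after treatment. Ran cycle genes took 0.122% and 0.0756% against 0.0464% and 0.0541%. For nucleoporins the shares were 0.419% and 0.374% against 0.307% and 0.324%. For the importins they were 0.594% and 0.461% against 0.385% and 0.423%, but without Kpna2, the most abundant of them, they were 0.191% and 0.198% against 0.206% and 0.196%. The difference in the summed importin share was that of Kpna2, and the other 17 importins together held a similar share in all 4 libraries. That sum covers differences in both directions, since by gene 12 of the 18 importins were lower after treatment and 6 were higher. Ipo5, for one, had an FPKM of 102 and 53.7 in the DMSO libraries against 27.2 and 31.3. Kpna3 had 64.1 and 140 against 210 and 195. All shares given here are of the counts in libraries of 10 pooled two-cell embryos each, and the amount of RNA per embryo was not measured.

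By gene, 43 of the 65 tested members were lower and 22 were higher in 10074-G5-treated embryos, with a median log2FC (treated minus DMSO) of −0.55 against 0.04 over all 13549 genes tested. None was called by edgeR's quasi-likelihood test at |log2FC| > 1 and a Benjamini-Hochberg adjusted p under 0.05, and neither was any other gene (0.00% called); the smallest adjusted p was 0.333, both among the members and over all genes. At an unadjusted p under 0.05, 15 members were lower (23.1%, against 10.1% of all genes) and 1, Kpna7, was higher (1.54%, against 4.72%). The 15 lower members were Nup133, Nup160, Nup43, Nup93, Nup155, Nup210l, Ranbp2, Ran, Rangap1, Rcc1, Ipo5, Ipo11, Tnpo3, Xpo1 and Xpot, which include pore rings, the Ran cycle and carriers in both directions. Both treated libraries lay below both DMSO libraries for 32 members (49.2%, against 28.3% of all genes) and above both for 11 (16.9%, against 28.9%).

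**Figure D1:**
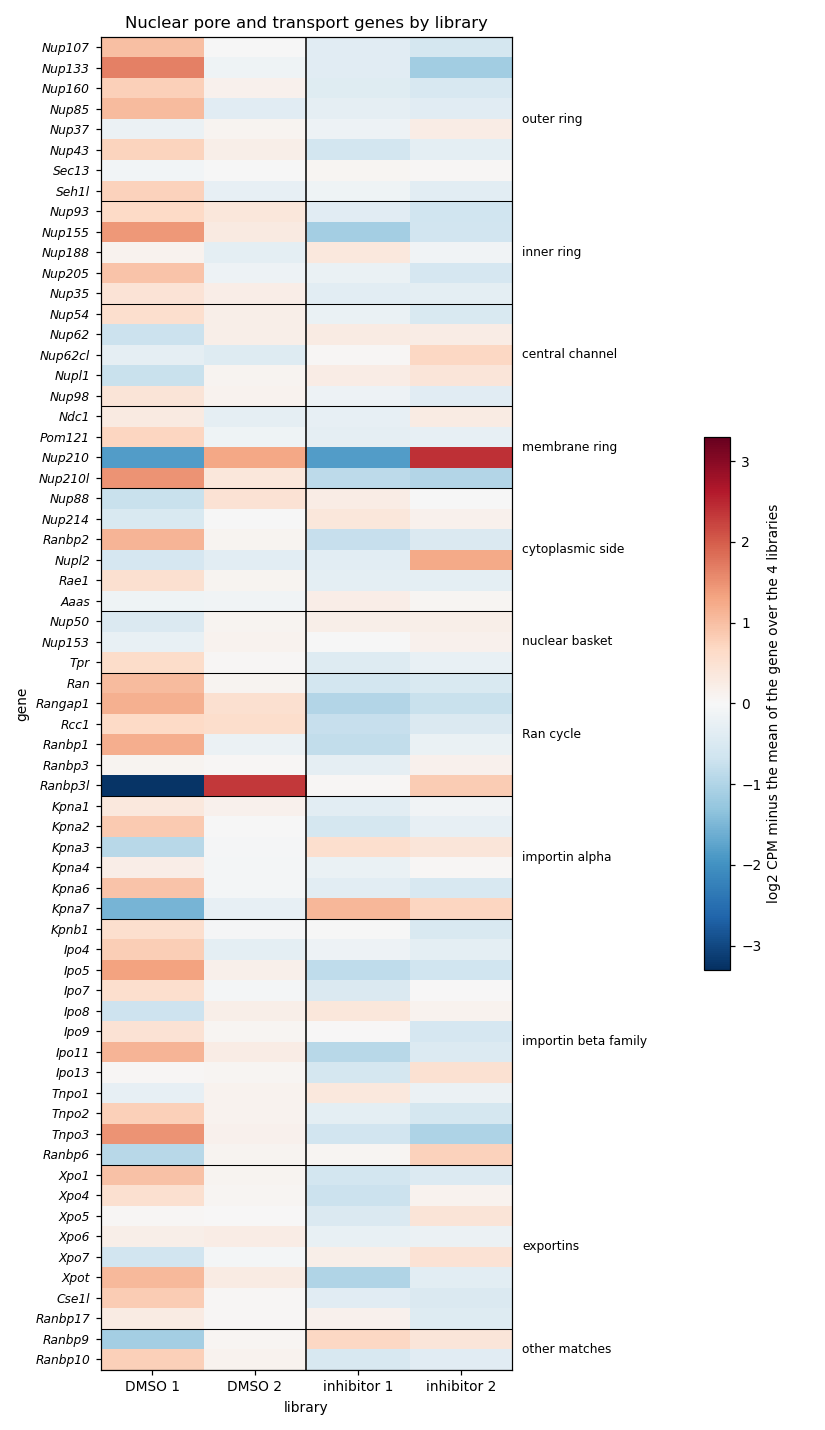
Level of the 65 tested transport genes in each library, as log2 CPM (counts scaled to a common library size) centred on the gene's mean over the 4 libraries, with genes in rows grouped by role and libraries in columns. For 60 genes DMSO replicate 1 lay beyond DMSO replicate 2 on the side away from the treated libraries (92.3%, against 76.7% of all genes tested).

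DESeq2 on the same counts with transcript lengths gave an adjusted p to 60 members and called 1 higher (Kpna7; background 1.04% of 7971 genes) and 4 lower (Rangap1, Nup155, Tnpo3 and Ipo5; background 5.38%). DESeq2 without lengths, on all genes with a count, called the same 5 and Ipo11, which was lower (background 1.09% higher and 5.48% lower). Over the alternatives, the lowest adjusted p of each of these genes came from the edgeR fit without DMSO replicate 2, which has a single DMSO library, so that the spread is that of the treated pair and the lone library is assumed to vary alike. With DMSO replicate 1 left out, the median log2FC was −0.27 for the members and 0.06 for all genes tested. With DMSO replicate 2 left out, it was −0.77 and 0.22. DMSO replicate 1 lay beyond DMSO replicate 2, away from the treated libraries, for 92.3% of the members and 76.7% of all genes. The absolute log2FC was smaller without DMSO replicate 1 for 56 of 65 members, which largely follows from that position. The sign turned for 7 (Nup85, Nup37, Seh1l, Ndc1, Nup88, Nup153 and Ipo4), none of which had an unadjusted p under 0.05. For these counts the shares of all genes are not given, so they are not read as a trait of the members. Without that library, 7 members had a log2FC beyond 1 in size, namely Nup155, Nup210l, Nupl2, Rangap1, Rcc1, Ranbp3l and Kpna7. The share of all genes without that library is not given here. With all 4 libraries, 18 of the 65 members were beyond 1, against 4854 of 13549 genes. For Nupl2 and Ranbp3l the groups overlapped, and the log2FC of Nupl2 was 0.10 without treated replicate 2.

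**Figure D2:**
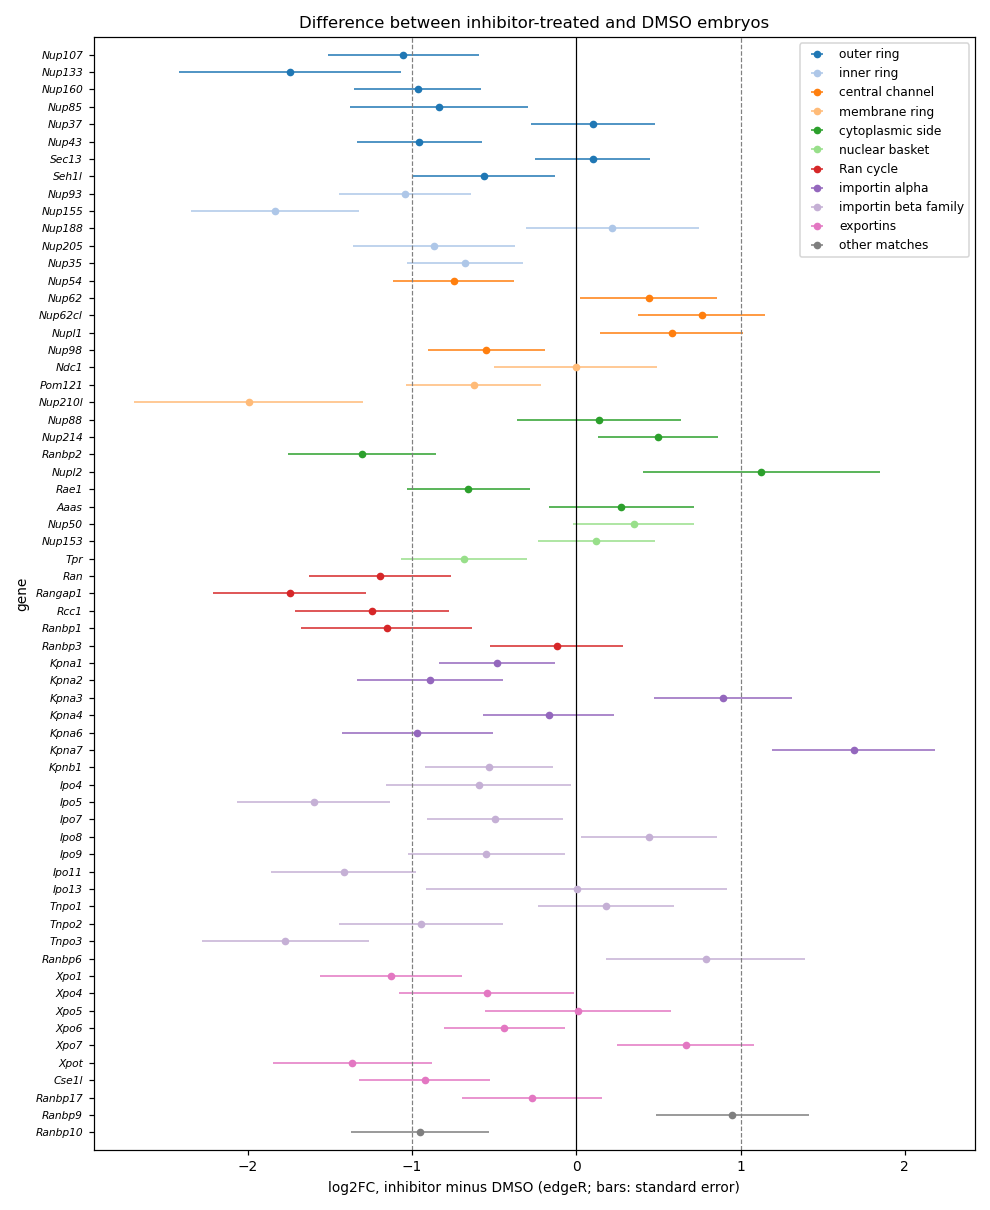
log2FC of each transport gene between 10074-G5-treated and DMSO embryos (horizontal axis) with its standard error as a bar, coloured by role; dashed lines mark a log2FC of 1 in either direction. Nup210 and Ranbp3l, with a library at 0, are not drawn, and the Ran cycle genes that are drawn all lie below 0 whereas Kpna7 lies farthest to the right.

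The Ran cycle had the lowest median of the 4 families, −1.18, with all 6 genes lower and 4 of them without overlap between the groups (66.7%, against 28.3% of all genes that were lower without overlap). The other 2, Ranbp3 and Ranbp3l, each changed sign when 1 library was left out. The median was −0.91 without DMSO replicate 1. Ran itself, the GTPase on chromosome 5 (GRCm38.p6, 129020156 to 129024322), measured 1089 and 563 CPM in the DMSO libraries and 349 and 372 CPM after treatment. Both treated libraries were below both DMSO libraries, which differed from each other more than the treated pair did. The log2FC was −1.20 ± 0.43 (SE), with an adjusted p of 0.333 by edgeR with Benjamini-Hochberg adjustment, and −0.63 without DMSO replicate 1. A near copy of Ran, Rasl2-9, is listed at an FPKM of 4.87, 8.89, 23.6 and 19.4 in DMSO replicates 1 and 2 and treated replicates 1 and 2. Its values were higher in the treated libraries, whereas those of Ran were lower, and Ran's own FPKM was 180 or more in every library. By the authors' description only reads that mapped to 1 place were retained. What this did to the values of the 2 copies was not tested.

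Rangap1, the activating protein that makes Ran hydrolyse GTP on the cytoplasmic side, lies on chromosome 15 (81704248 to 81730798) and measured 41.6 and 26.8 CPM in the DMSO libraries against 9.32 and 11.1 CPM after treatment. The groups were well apart. Its log2FC was −1.75 ± 0.47 by edgeR (Benjamini-Hochberg adjusted p = 0.333) and its adjusted p was 0.0288 by DESeq2, with a range from 0.00311 to 0.992 over the alternatives. It is one of the genes that kept a large difference without DMSO replicate 1, at −1.38.

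Rcc1, the chromatin-bound exchange factor that loads Ran with GTP, measured 21.7 and 20.6 CPM in the DMSO libraries and 7.98 and 9.88 CPM in the treated libraries. Here the DMSO libraries were alike, and the log2FC of −1.24 ± 0.47 was −1.19 without DMSO replicate 1. Ranbp1, which helps release Ran-GTP from carriers, differed from it, with 212 and 80.1 CPM against 51.9 and 79.0 CPM. The second DMSO library nearly met the treated ones, and its log2FC of −1.16 was −0.27 without DMSO replicate 1. Ranbp3, a cofactor of Xpo1, differed little (log2FC −0.12, but 0.13 without treated replicate 1), and Ranbp3l was counted at 0 in DMSO replicate 1 and at 4.71, 0.881 and 1.62 CPM in the others. The log2FC of Ranbp3l, −0.91 ± 1.79, was 7.63 without DMSO replicate 2, so its direction is not known.

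**Figure D3:**
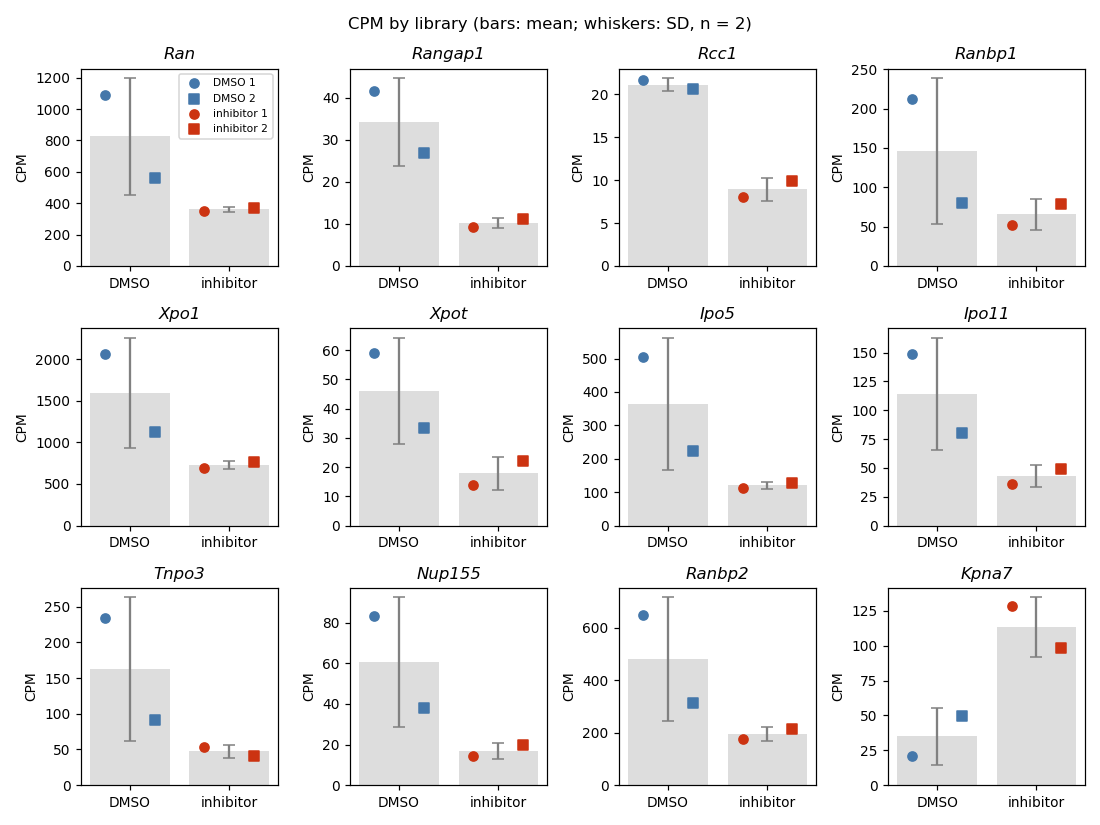
CPM of 12 transport genes in each library (points), with the mean (bar) and SD (whisker) of the 2 libraries of each group. For Rcc1 the 2 DMSO libraries nearly coincide at 21.7 and 20.6 CPM, whereas for Ranbp1 they stand at 212 and 80.1 CPM.

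Importin alpha proteins bind the nuclear localization signal of a cargo and join it to importin beta. Compared per length, Kpna2 dominated this class, with an FPKM of 2293 and 1497 in the DMSO libraries and 1012 and 1289 after treatment, and it stood at rank 69 of all listed genes by its mean. By CPM it measured 4624 and 2537 against 1716 and 2142, a log2FC of −0.89 ± 0.45 (−0.38 without DMSO replicate 1) that did not pass the test, with an adjusted p of 0.373 by edgeR with Benjamini-Hochberg adjustment.

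Kpna7, on chromosome 5 (144983727 to 145009636), went the other way. It measured 20.8 and 49.6 CPM in the DMSO libraries and 128.6 and 98.3 CPM after treatment. Each treated library was above both DMSO libraries, and the DMSO libraries differed from each other 2.39-fold. Its log2FC was 1.69 ± 0.50 by edgeR (Benjamini-Hochberg adjusted p = 0.333), its adjusted p by DESeq2 was 0.0263, and over the alternatives the adjusted p ran from 0.000695 to 0.992. Without DMSO replicate 1 the log2FC was 1.21. Of the oocyte-derived markers given above, 6 of 7, all but Zp3, were also higher in the treated libraries; their part in this difference was not tested.

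Kpna3 was the other importin alpha with higher values, at 286 and 525 CPM in the DMSO libraries and 787 and 718 CPM after treatment (log2FC 0.89 ± 0.42, 0.53 without DMSO replicate 1, adjusted p = 0.354 by edgeR with Benjamini-Hochberg adjustment). The remaining members were lower or nearly level, with a log2FC of −0.48 for Kpna1, −0.17 for Kpna4 and −0.97 for Kpna6, which without DMSO replicate 1 were −0.37, 0.00 and −0.37. Within the importin alpha pool the composition differed between the libraries. Kpna2 held 92.7% and 84.6% of the summed FPKM in the DMSO libraries and 74.0% and 79.2% in the treated ones, and Kpna7 held 0.372% and 1.48% against 4.96% and 3.25%. The ratio of Kpna2 to Kpna7 was 249 and 57.3 in the DMSO libraries, and 14.9 and 24.4 after treatment. In contrast, the ratio of Xpo1 to Kpna2 stayed between 0.136 and 0.170 in all 4 libraries.

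**Figure D4:**
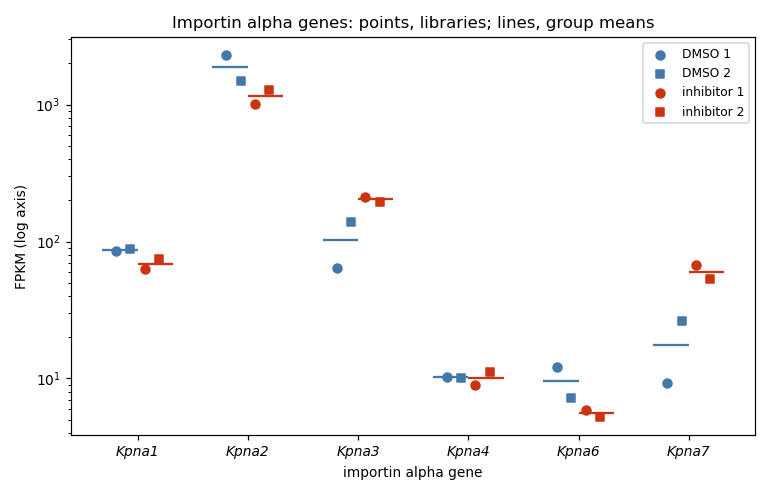
FPKM of the 6 importin alpha genes in each library on a logarithmic axis. Kpna2 is the highest in every library, at 2293 in DMSO replicate 1 and between 1012 and 1497 in the others, while Kpna7 runs from 9.21 in DMSO replicate 1 to 67.8 in treated replicate 1.

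In the importin beta family, whose members carry cargo alone or with importin alpha, 8 of 12 genes were lower and 4 were higher (median −0.54), and the groups did not overlap for 5, all of them lower (41.7%, against 28.3% of all genes lower and 57.3% in either direction). The median was −0.17 without DMSO replicate 1. Ipo5, a carrier of ribosomal proteins and histones on chromosome 14 (120896840 to 120948046), was the most abundant by CPM in DMSO replicate 1, with 505 and 223 CPM in the DMSO libraries and 113 and 128 CPM in the treated libraries. The treated pair was close together and below both DMSO libraries. Its log2FC was −1.60 ± 0.47 by edgeR (Benjamini-Hochberg adjusted p = 0.333), its adjusted p by DESeq2 was 0.0268, and the range over the alternatives was 0.000377 to 0.992. The log2FC was −0.88 without DMSO replicate 1.

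Tnpo3, the carrier of serine- and arginine-rich splicing factors on chromosome 6 (29540827 to 29609858), measured 234 and 91.4 CPM in the DMSO libraries against 54.0 and 41.2 CPM. The DMSO libraries were 2.56-fold apart, more than the gap between DMSO replicate 2 and the treated pair. The log2FC was −1.77 ± 0.51 by edgeR (Benjamini-Hochberg adjusted p = 0.333), with an adjusted p of 0.0230 by DESeq2 (0.000444 to 0.992 over the alternatives), and −0.93 without DMSO replicate 1. The gene overlaps Irf5 in the RefSeq annotation.

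Ipo11, which carries a ubiquitin-conjugating enzyme, measured 149 and 80.0 CPM against 36.3 and 49.4 CPM, with a log2FC of −1.42 ± 0.44 (−0.89 without DMSO replicate 1); its adjusted p by DESeq2 was 0.0508 with transcript lengths and 0.0498 without them. Kpnb1, the importin beta that partners importin alpha, measured 178 and 119 CPM in the DMSO libraries and 119.9 and 85.4 CPM after treatment, so that the groups overlapped (log2FC −0.53 ± 0.39, −0.20 without DMSO replicate 1). Ipo8, which has the highest mean FPKM of the family after Ipo5, measured 151 and 279 CPM against 318 and 267 CPM, and its groups overlapped as well. That order rests on DMSO replicate 1, where Ipo5 had an FPKM of 102 and Ipo8 26.0. In every other library Ipo8 was above Ipo5.

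Exportins were lower for 6 of 8 genes (median −0.49), with the groups apart for 5 (62.5%, near the 57.3% of all genes), of which 4 were lower. The median was −0.36 without DMSO replicate 1. Xpo1, the main exporter of proteins with a nuclear export signal, on chromosome 11 (23255909 to 23297597), measured 2065 and 1123 CPM in the DMSO libraries and 695 and 765 CPM in the treated libraries. The treated libraries were close and below both DMSO libraries, with a log2FC of −1.13 ± 0.43 (−0.61 without DMSO replicate 1). Per length it was 95.6-fold above Xpo7, the lowest of the class.

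Xpot, the exporter of transfer RNA, measured 59.0 and 33.4 CPM against 13.9 and 21.9 CPM (log2FC −1.36 ± 0.48, −0.88 without DMSO replicate 1). Cse1l, which returns importin alpha to the cytoplasm, measured 379 and 218 CPM against 163 and 152 CPM (log2FC −0.92 ± 0.40, −0.46 without DMSO replicate 1). For both, the adjusted p by edgeR with Benjamini-Hochberg adjustment did not pass, at 0.333 for Xpot and 0.338 for Cse1l. Xpo7 was the one exportin with higher values and no overlap, at 23.0 and 34.2 CPM against 40.8 and 49.9 CPM (log2FC 0.67, 0.42 without DMSO replicate 1), and Xpo5, the exporter of microRNA precursors, had a log2FC of 0.01.

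Among the 31 nucleoporins, 18 were lower and 13 were higher (median −0.56), and the medians of the roles within the pore rested largely on DMSO replicate 1. The outer ring had −0.90, but −0.23 without that library, and the inner ring −0.86, but −0.54. The membrane ring had −0.31, which turned to 0.06, and the central channel 0.44, which shrank to 0.07. The cytoplasmic side had 0.21 and the nuclear basket 0.12, which turned to −0.03 and −0.04. These medians rest on 3 to 8 genes each and were not tested against one another, so no order of the roles is read from them.

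Outer ring genes code for the Y-shaped scaffold that coats the pore membrane on both faces. Nup43 was the most abundant per length, with 464 and 318 CPM in the DMSO libraries and 183 and 221 CPM after treatment (log2FC −0.96 ± 0.38, −0.64 without DMSO replicate 1). Nup133 measured 49.3 and 13.9 CPM against 11.9 and 6.96 CPM; only DMSO replicate 1 was far from the others, and its log2FC of −1.74 ± 0.67 was −0.55 without that library. Nup107 had a log2FC of −1.05 ± 0.46, and Nup160 one of −0.97 ± 0.39, which were −0.45 and −0.58 without it. Sec13 and Nup37 differed by 0.10 each, and Seh1l, with 419 CPM in DMSO replicate 1 and between 196 and 225 CPM in the others, overlapped between the groups.

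Inner ring genes build the scaffold that lines the membrane at the pore's waist. Nup155, on chromosome 15 (8109263 to 8159859), measured 83.2 and 38.0 CPM in the DMSO libraries and 14.1 and 19.8 CPM in the treated libraries. Both treated libraries were below both DMSO libraries. Its log2FC was −1.83 ± 0.51 by edgeR (Benjamini-Hochberg adjusted p = 0.333), its adjusted p by DESeq2 was 0.0233 (0.000884 to 0.992 over the alternatives), and it kept −1.15 without DMSO replicate 1. Nup93, with 52.3 and 42.7 CPM against 25.2 and 20.9 CPM, was the inner ring gene least dependent on that library among those with an unadjusted p under 0.05 (log2FC −1.04 ± 0.40, −0.88 without it). Nup35, the most abundant per length in this ring, measured 519 and 441 CPM against 297 and 302 CPM, and Nup188, the least abundant, had a log2FC of 0.22.

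In the central channel, whose phenylalanine-glycine repeats form the barrier that carriers cross, the 5 genes were split, and none overlapped between the groups, as was so for 57.3% of all genes. Nup54 and Nup98 were lower (log2FC −0.75 and −0.55, and −0.55 and −0.36 without DMSO replicate 1), and Nup62, Nup62cl and Nupl1 were higher (0.44, 0.76 and 0.58, and 0.07, 0.84 and 0.24). Nup54, Nup62 and Nupl1 code for partners in one channel complex. Nup62cl, a relative of Nup62, measured 78.6 and 72.2 CPM in the DMSO libraries and 99.2 and 157 CPM after treatment, and its log2FC of 0.76 was 0.40 without treated replicate 2. For Nup62, at 56.2 and 106.3 CPM against 111.8 and 109.0 CPM, DMSO replicate 2 was near the treated libraries. No gene of this class had an unadjusted p under 0.05.

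The cytoplasmic side holds Ranbp2, a SUMO ligase that binds Ran and Rangap1 on the pore filaments. It measured 646 and 312 CPM in the DMSO libraries and 175 and 213 CPM after treatment, a log2FC of −1.31 ± 0.45 that was −0.67 without DMSO replicate 1. Rae1, an mRNA export factor, was lower too (log2FC −0.66, −0.41 without that library), while Nup214, with 110 and 155 CPM against 202 and 172 CPM, was higher (0.50, 0.28 without it). In the basket, Tpr measured 733 and 495 CPM against 359 and 405 CPM (log2FC −0.68, −0.36 without it), while Nup50 and Nup153 had 0.35 and 0.12 (0.10 and −0.04 without it). Of the membrane ring, Pom121 had −0.62 (−0.13 without it) and Ndc1 0.00, and Nup210l, at 11.98 and 5.51 CPM against 2.27 and 2.10 CPM, had −2.00 ± 0.70 (−1.32 without it). Nup210 was near the limit of detection, at 0, 0.794, 0 and 1.86 CPM.

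**Figure D5:**
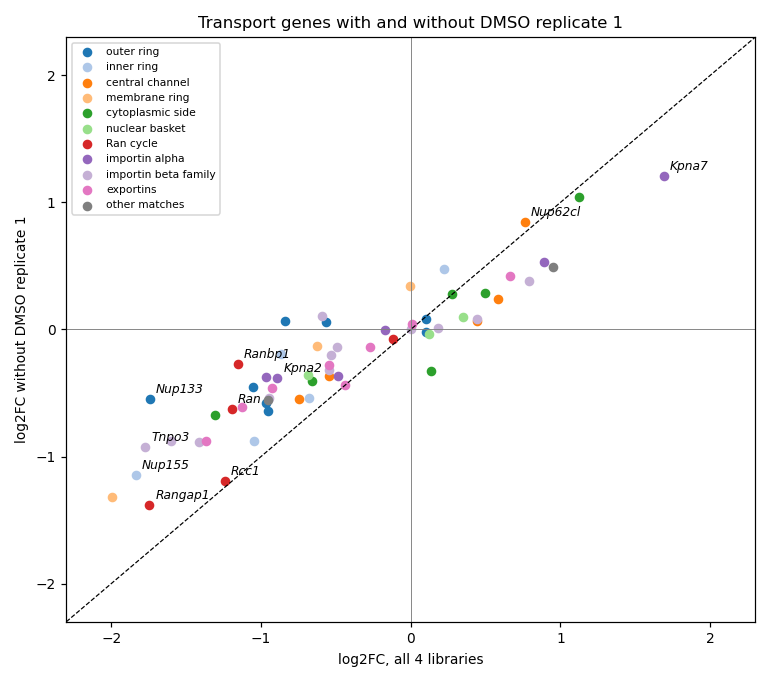
log2FC of each transport gene with all 4 libraries (horizontal axis) and without DMSO replicate 1 (vertical axis), coloured by role; the dashed line marks equal values, and Nup210 and Ranbp3l are not drawn. Rcc1 lies near the dashed line (−1.24 and −1.19), and Nup133 lies far from it (−1.74 and −0.55).

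Of the genes that match only by symbol, Ranbp9, a scaffold protein that is not a transport receptor, was higher, with 173 and 392 CPM against 599 and 493 CPM (log2FC 0.95 ± 0.47, 0.49 without DMSO replicate 1), and Ranbp10, its relative, was lower, with 69.2 and 43.0 CPM against 27.6 and 30.4 CPM (−0.95 ± 0.42, −0.56 without it).

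By level per length, the median FPKM over the 4 libraries was 19.8 for nucleoporins, 19.3 for importins, 11.5 for the Ran cycle and 5.89 for exportins, against 0.48 over all genes listed. Genes whose products work in one assembly differed widely, by 82.3-fold between Nup43 and Nup133 in the outer ring and by 82.8-fold between Nup35 and Nup188 in the inner ring. After Kpna2, with a mean FPKM of 1523, came Nup43 with 287, Ran with 285 and Xpo1 with 243, and the last 3 were not separable beyond the spread of the DMSO libraries.

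MYC with MAX binds the E-box CACGTG, which reads the same on both strands. The RefSeq promoter table (GRCm38.p6), which spans 250 bases before to 50 bases after each start site, held 52 of the 65 tested members, and the motif occurred in 9 of them (17.3%), against 8.09% of all 27025 genes of the table and 11.5% of the 10307 tested genes with a match. Of the members lower with an unadjusted p under 0.05, 4 of 13 held it (30.8%), and of the others 5 of 39 (12.8%). The median log2FC was −0.94 for the 9 with the motif, 8 of them lower, and −0.27 for the 43 without, 24 of them lower. Neither split by direction was made over all tested genes or without DMSO replicate 1. No link between the motif and the direction is therefore read from them. A match is a description of these letters only. The 4 stretches of 30 bases shown are those of the 4 members lower with an unadjusted p under 0.05, and so were chosen by that result. Each is read 5′ to 3′ on the strand of its gene with the E-box in capitals.
Nup93: gtcaactccaacCACGTGggcgggagcagg
Ranbp2: ttgcgaaacggtCACGTGgtctggagcgcg
Ran: gctcggccggccCACGTGacccgccgcccc
Xpot: agctccagggagCACGTGcgcggtcctcct
They lie at chr8:94214377-94214406 (plus strand, 175 bases before the start), chr10:58446753-58446782 (plus strand, 87 bases before), chr5:129020026-129020055 (plus strand, 118 bases before) and chr10:121626546-121626575 (minus strand, 231 bases before an alternative annotated start). The other members with the motif were Nup188 (log2FC 0.22), Nup54, Ipo4, Ipo7 and Tnpo2. None of the members called by DESeq2 had a match, namely Rangap1, Nup155, Kpna7, Tnpo3, Ipo5 and Ipo11.

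Other genes of the export and import pathway, from a list of 32 genes, of which 31 were tested, had a median log2FC of −0.77, with 25 lower and 6 higher; the groups did not overlap for 18 lower genes (58.1%, against 28.3% of all genes) and 6 higher ones (19.4%, against 28.9%). The median was −0.28 without DMSO replicate 1. At an unadjusted p under 0.05, 5 were lower (Thoc3, Sarnp, Ncbp1, Ncbp2 and Phax; 16.1%, against 10.1% of all genes) and none higher. Sarnp, a component of the mRNA export complex TREX, measured 180 and 89.4 CPM in the DMSO libraries and 36.5 and 30.6 CPM after treatment, a log2FC of −2.00 ± 0.45 (−1.40 without DMSO replicate 1), with an adjusted p of 0.00563 by DESeq2 against 0.333 by edgeR with Benjamini-Hochberg adjustment. Ncbp1 and Ncbp2, the subunits of the cap-binding complex, had −1.31 and −1.15, which were −0.70 and −0.53 without DMSO replicate 1. Ddx39b, an RNA helicase of TREX, measured 29.0 and 7.36 CPM against 4.41 and 7.25 CPM, and its log2FC of −1.64 was −0.32 without DMSO replicate 1. In a list of 15 genes of the nuclear lamina and envelope, 11 were tested, with 7 lower and 4 higher (median −0.33). The single gene with an unadjusted p under 0.05 by edgeR was Lemd3, an inner membrane protein (log2FC −1.16 ± 0.41, −0.76 without DMSO replicate 1). That is 9.09% of the list, near the 10.1% of all genes that were lower at this cut. Lbr, the lamin B receptor, measured 302 and 155 CPM against 106 and 131 CPM (log2FC −0.95 ± 0.43, −0.37 without it).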

How the data were processed

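RNA of 4 libraries was measured. Per the labels and the methods, the authors aligned read pairs to mm10 with STAR (version 2.7.10), retained reads that mapped to 1 place, and estimated gene levels by RSEM (version 1.3.3). The expected counts deposited by the authors are RSEM estimates of fragments per gene and are not normalized; 3.97% to 4.49% of the values in a library were not whole, and all were rounded. The deposited FPKM and TPM values are scaled by the authors to effective length and library; TPM was used only to check the unit, and FPKM for levels between genes. The members and lists were chosen with earlier results of these data known.

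Counts were tested with edgeR 4.0.16 in R 4.3.3 (filterByExpr with a minimum count of 10 and a minimum total of 15, TMM, quasi-likelihood F test, Benjamini-Hochberg adjustment over 13549 genes). The SE is |log2FC| divided by the square root of F. CPM values are TMM-scaled, with factors of 0.873 and 1.04 in the DMSO group and 1.04 and 1.06 in the treated group. The common biological coefficient of variation was 0.557. With 2 libraries a group, an exact permutation test cannot go below a p of 0.333. Alternatives used DESeq2 1.42.0 and limma 3.58.1 on log2 FPKM. Scripts were tested on simulated data.

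Named genes were every Kpna gene, in every other role the 2 with the highest mean FPKM and the 2 with the largest |log2FC| among those whose groups do not overlap, the same 2 by |log2FC| in the further lists, and every gene called by edgeR or DESeq2; other genes named were chosen after their values were seen. Sequences and coordinates are from RefSeq. In RefSeq, 40 of the 66 members overlap another gene, and counting by strand is not given in the sources used here.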

Additional observations from a re-analysis of the deposited data

How the results depend on the processing

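Calls depended on the tool, the filter and single libraries. By DESeq2 with transcript lengths, 1 of the 60 transport genes with an adjusted p was called higher and 4 were called lower. Of the 7971 genes with an adjusted p in that setting, 1.04% were called higher and 5.38% lower. By DESeq2 on all genes with a count, the shares of all genes were 1.09% and 5.48%. The other calls below are counts without a share, and no enrichment is read from them. Over all genes, 0 were called in either direction, against 165 higher and 479 lower without a filter on low counts, 95 and 471 by DESeq2 on the same genes, 87 and 437 by DESeq2 on all genes with a count, and 83 and 429 by DESeq2 with transcript lengths. Leaving out 1 library gave 1 to 2148 higher and 1 to 2065 lower, the highest without DMSO replicate 2, where the lone DMSO library is assumed to vary like the treated pair. Among transport genes, 1 was called higher in each of these 4 settings, and 4, 5, 5 and 4 were called lower; leaving out 1 library gave 0 to 4 higher and 0 to 23 lower, again highest without DMSO replicate 2. In the further transport list, 2, 1, 1 and 1 were called lower, with 0 to 1 higher and 0 to 15 lower on leaving out a library, and 0 to 4 lower in the envelope list. The count with an unadjusted p under 0.05 and past the fold was 2 higher by limma on log2(FPKM + 1) and 0 to 5 on leaving out a library (1 in the reported fit), and 6, 7 and 6 lower by limma with a pseudocount of 1, of 0.1 and of 1 without filter, and 1 to 25 on leaving out a library (13 in the reported fit). These counts at an unadjusted p under 0.05 and past the fold are of transport genes, 65 of which were tested in the reported fit. Over all 13549 genes tested in that fit, 618 higher and 1271 lower met the same cut. The share of all genes at this cut in the other fits is not given here. The groups did not overlap for 14 to 19 higher and 34 to 41 lower transport genes with a library left out, while over all genes the shares were 37.2% to 45.4% higher and 36.2% to 41.2% lower (28.9% and 28.3% with all libraries), a count chosen after seeing the data.

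On leaving out a library, the median log2FC ran from −0.79 to −0.13 for nucleoporins, −0.76 to −0.17 for importins, −0.70 to −0.36 for exportins, −0.77 to −0.27 for all transport genes, −1.01 to −0.28 for the further transport list and −0.73 to −0.23 for the envelope list. The envelope median was also −0.19 with library totals alone, −0.51 without filter, −0.48 with at least 10 counts in every library, −0.52 and −0.67 by DESeq2 on all genes and with lengths, and −0.46, −0.50 and −0.12 by the 3 limma settings; the cause was not tested. Library totals alone moved the median of all genes from 0.04 to 0.17.

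With a replicate block, 12 genes were called higher and 32 lower and no transport gene was. The log2 CPM difference between replicates 1 and 2 in the DMSO group had a correlation of −0.03 with that in the treated group. This correlation was taken over the 13549 tested genes, and the replicate numbers are not known to pair the libraries. Of 613 alternative values for 41 named genes, 550 kept their direction and, as in the reported fit, were not called. Their size could still change, as for Nup133 without DMSO replicate 1 (−1.74 to −0.55). A further 52 passed both the adjusted p and the fold threshold, some of them in a fit with a single DMSO library, and 11 turned sign. These 11 were Ndc1 (0.16 with library totals, 0.027 with at least 10 counts, 0.12, 0.14 and 0.12 by limma, 0.0017 with the replicate block, and −0.30 to 0.34 on leaving out a library), Seh1l (0.057) and Nup153 (−0.036) without DMSO replicate 1, and Kpna4 (0.0022) without treated replicate 1. On leaving out a library, Seh1l ran from −0.99 to 0.057, Nup153 from −0.036 to 0.32 and Kpna4 from −0.31 to 0.0022. Depth did not limit the abundant members; Nup210, Ranbp3l and Ipo13 rest on few counts.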
